A study of Homo sapiens with 6 samples.

Results

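The insulin-like growth factor (IGF) binding proteins IGFBP2 to IGFBP7, the ligand IGF2 and its receptor IGF2R were followed in M14 cells, an established human melanoma line, grown as non-adherent melanospheres (3D, 3 libraries) or as a conventional adherent layer (2D, 3 libraries). The genes were chosen by name, and 8 of 8 had a row in the deposited table, out of 26748 genes in all. Both cultures were of the same line with no further agent named in the labels, and the media, the time in culture and whether replicates were separate cultures are not stated in the labels, so the p-values reflect spread among libraries that may be technical only. Values are normalised counts, that is reads per gene divided by a size factor for each library, and 1 read was worth 0.928 to 1.07 normalised counts. Of the 8 genes, 6 reached the mean of 10 normalised counts over the 6 libraries that was needed for a test, while IGF2 and IGFBP2 did not.

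IGF1 and IGF2 are secreted growth factors that signal through the receptor tyrosine kinase IGF1R. IGFBP1 to IGFBP6 bind both ligands with high affinity outside the cell, where they carry them, hold them away from the receptor or release them when proteases cut the binding protein; IGFBP7 is a more distant relative with low affinity for IGFs. IGF2R has no kinase activity, takes IGF2 to the lysosome for degradation, and also carries enzymes tagged with mannose 6-phosphate to that compartment.

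The libraries held 16567763 to 19954987 reads assigned to genes. On the first principal component 2D replicate 3 lay at -24.7, between the 3D libraries (59.3 to 73.9) and the other 2D libraries (-94.7 and -84.4), and 3D replicate 2 correlated less with its fellows (r = 0.966 and 0.967 across genes) than these did with each other (0.987). Of 10 markers of the melanocyte lineage, 6 were too low to test and 4 were clearly read in at least 1 culture. Among the low ones, SOX10 had 2.54 ± 2.43 in 3D and 16.1 ± 18.2 in 2D (SD, n = 3 each), MLANA 8.26 ± 5.76 in 3D and 10.2 ± 6.34 in 2D, TYR 0.323 ± 0.560 in 3D and 14.8 ± 16.8 in 2D, and S100B 0.323 ± 0.560 in 3D and 5.13 ± 7.13 in 2D. The epithelial keratin KRT8 had 24926 ± 3485 in 3D and 24771 ± 17046 in 2D. Of the 4 lineage markers high enough to test, S100A1 rose (76.8 ± 7.46 in 3D and 17.9 ± 13.2 in 2D), MITF fell (288 ± 19.02 in 3D and 1131 ± 215 in 2D), DCT fell (0.619 ± 1.07 in 3D and 70.01 ± 42.4 in 2D) and PMEL did not pass (1071 ± 398 in 3D and 434 ± 280 in 2D). The cells are called M14 here, as labelled.

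Stretches of genome just upstream of 3 of these genes are shown because they belong to the only member that passed the test (IGFBP5), to the member with the highest level per length in the adherent culture (IGFBP4) and to the receptor (IGF2R). Each is the 250 bases before the RefSeq start (GRCh38.p14), read 5′ to 3′ on the gene's strand, with capitals for TATTTAA before IGFBP5, for TATAAA before IGFBP4 and for CACGTG before IGF2R, each on either strand. IGFBP5 lies on the minus strand (chr2:216695550-216695799); IGFBP4 (chr17:40443200-40443449) and IGF2R (chr6:159968832-159969081) lie on the plus strand.
IGFBP5: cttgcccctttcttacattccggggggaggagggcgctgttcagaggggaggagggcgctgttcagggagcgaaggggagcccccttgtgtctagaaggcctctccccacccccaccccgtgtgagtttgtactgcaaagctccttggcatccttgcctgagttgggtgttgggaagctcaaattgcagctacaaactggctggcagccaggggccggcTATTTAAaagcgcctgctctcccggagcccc
IGFBP4: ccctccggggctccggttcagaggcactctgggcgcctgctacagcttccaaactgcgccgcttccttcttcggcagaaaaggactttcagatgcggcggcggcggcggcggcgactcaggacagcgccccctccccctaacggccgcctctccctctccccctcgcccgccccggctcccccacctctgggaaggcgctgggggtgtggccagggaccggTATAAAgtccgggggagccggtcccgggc
IGF2R: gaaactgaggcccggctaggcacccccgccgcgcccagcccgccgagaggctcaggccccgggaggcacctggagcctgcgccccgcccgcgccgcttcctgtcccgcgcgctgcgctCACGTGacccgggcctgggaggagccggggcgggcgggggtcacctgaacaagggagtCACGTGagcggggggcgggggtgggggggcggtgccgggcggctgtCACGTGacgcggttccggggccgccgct
The letters TATTTAA stood 25 to 31 bases before the start of IGFBP5 and TATAAA stood 24 to 29 bases before that of IGFBP4. CACGTG occurred 3 times before IGF2R and in none of the other members' windows. Of 35116 RefSeq windows of this length, 4.17% held TATTTAA, 10.7% held TATAAA and 6.34% held CACGTG. Windows were found for 6 of the 8 members. The GC-box letters GGGCGG (42.6% of all windows) occurred in those of IGFBP2, IGFBP3, IGFBP4, IGFBP6 and IGF2R, 6 times before IGF2R, and the letters TGANTCA (6.57%) in none. No searched motif overlapped another, except that 2 of the GGGCGG matches before IGF2R shared letters. A match is a run of letters and was not tested as a binding site.

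IGFBP5 was the only binding protein that rose in the spheres by the test on all libraries. IGFBP3, IGFBP4, IGFBP6, IGFBP7 and IGF2R did not pass. Thus 1 of 6 tested members was higher in 3D and 0 were lower, where 24.1% of the 15598 genes tested were called in either direction, 12.5% higher and 11.6% lower, or 1950 and 1816 genes (2392 and 1253 with libraries rescaled to equal totals; limma, Benjamini-Hochberg adjusted p under 0.05). The members' median log2 change was 0.22, beside -0.02 over all genes tested. At an unadjusted p under 0.05 the count lower was also 0 in limma, and edgeR and DESeq2 on the recovered reads each called 0 lower.

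**Figure D1:**
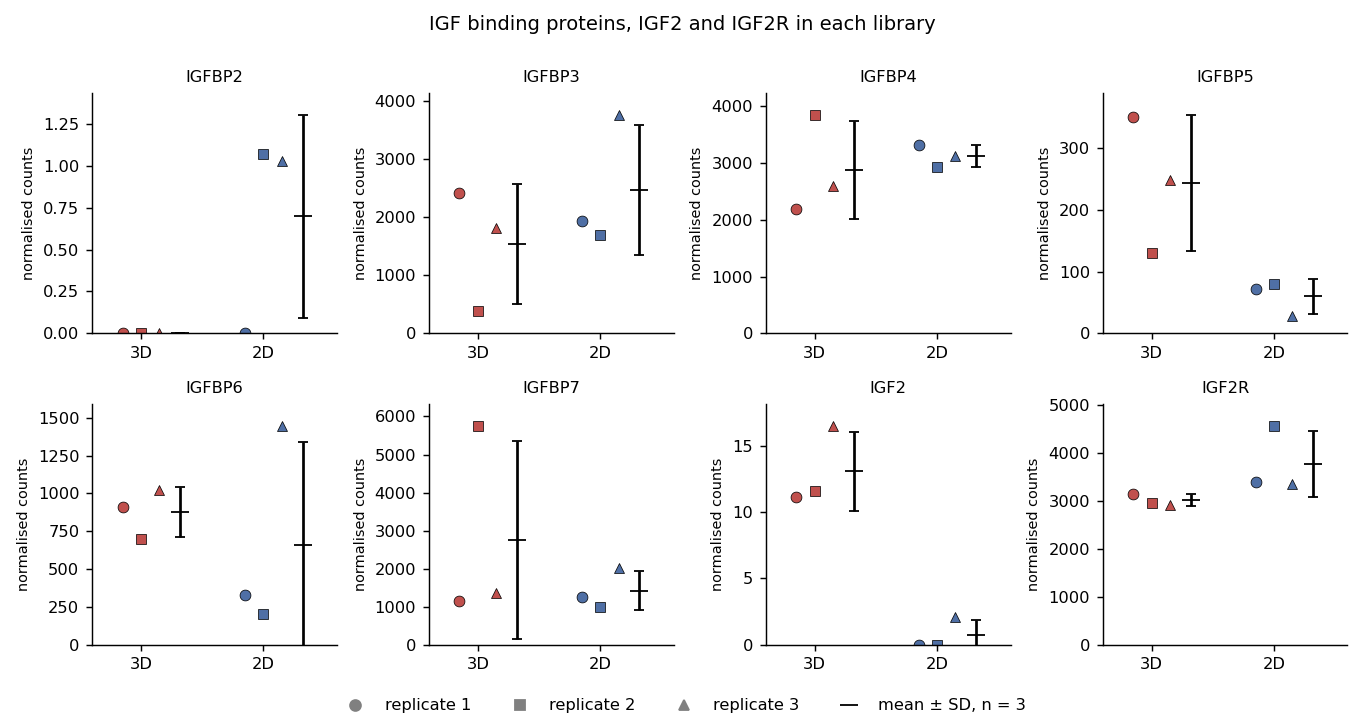
Normalised counts (vertical axes, each starting at 0) of the 8 genes in the 3 libraries of 3D and the 3 libraries of 2D. Symbols mark the replicate number, by which libraries were not paired in the main test. The bar is the mean ± SD, cut at 0 where it would run below. The groups are apart for IGFBP5, IGF2 and IGF2R, single libraries stand away from their group for IGFBP3, IGFBP6 and IGFBP7, and IGFBP2 had 2 reads in all. Of all genes tested, 20.5% had every 3D library above every 2D library and 22.6% had every 3D library below.

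IGFBP5 (ENSG00000115461, chromosome 2, 216672105 to 216695525, GRCh38, GENCODE 29) encodes a binding protein that associates with extracellular matrix and has IGF-dependent and IGF-independent actions. It had 351, 129.9 and 249 normalised counts in 3D replicates 1, 2 and 3, against 72.4, 80.06 and 27.8 in 2D replicates 1, 2 and 3. Every 3D library lay above every 2D library, an arrangement seen in 20.5% of all genes tested. The means were 243 ± 111 in 3D and 60.08 ± 28.3 in 2D (SD, n = 3 each), a ratio of 4.05 and a log2 change of 2.02 (SE 0.49, 95% interval 0.91 to 3.14, limma adjusted p = 0.021). The value rested on 753 reads in 3D and 178 in 2D. Leaving out 3D replicate 1 (log2 1.70, adjusted p = 0.088) or 3D replicate 3 (1.95, adjusted p = 0.087) ended the call, which held when any other single library was dropped; the log2 change over these fits ran from 1.55 to 2.42. Fibroblast markers, a cell type that makes IGFBP5, moved with it in part: 1 of 3 tested (COL3A1) rose, and the summed level of the list was 9263 to 12212 in 3D and 2042 to 6539 in 2D. Of the defining fibroblast genes, DCN had at most 3.88 in a 3D library and 0 in each 2D library, and COL1A2, LUM and PDGFRA were not analysed here; the part of such cells in the result was not tested. In bulk RNA, more cells that express a gene and more RNA per cell cannot be told apart.

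IGFBP2 (ENSG00000115457, chromosome 2, 216632828 to 216664436), which encodes a binding protein with an integrin-binding RGD motif, is the neighbour of IGFBP5 on the other strand, with 7668 bases between the genes. It had no reads in 3D, and in 2D 1 read in replicate 2 and 1 in replicate 3. Both cultures were under the level of 3 reads that a count of 0 allows, so no fold is given. Of the 2 adjacent genes, IGFBP5 was thus read in every library and IGFBP2 was at or near 0 throughout.

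IGFBP3 (ENSG00000146674, chromosome 7, 45912245 to 45921874), the main carrier of IGFs in blood and a growth inhibitor in many cultured cells, varied more within each culture than between them. It had 2410.5, 388 and 1805 normalised counts in 3D replicates 1, 2 and 3, against 1940.4, 1699 and 3759 in 2D replicates 1, 2 and 3. The low library was 3D replicate 2 and the high one 2D replicate 3, and the other 4 libraries of both cultures overlapped. The means were 1535 ± 1038 in 3D and 2466 ± 1126 in 2D, with a log2 change of -0.96 (SE 0.62, 95% interval -2.38 to 0.46, adjusted p = 0.281). In 3D replicate 2 the log2 value was 2.42 below the mean of the other 3D libraries, and 0.635% of the 15598 genes tested were as far from their fellows in that library, in either direction. Without 3D replicate 2 the log2 change was -0.15, and without that library and 2D replicate 3 it was 0.20 (adjusted p = 0.303).

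IGFBP4 (ENSG00000141753, chromosome 17, 40443461 to 40457731) encodes a binding protein that mostly restrains IGF action until the protease PAPPA cuts it. It had 2191, 3848 and 2588 normalised counts in 3D replicates 1, 2 and 3, against 3324, 2926 and 3115 in 2D replicates 1, 2 and 3. The 2D libraries were close together, with a coefficient of variation of 6.38%, and lay within the range of the 3D libraries, where it was 30.1%. The means were 2876 ± 866 in 3D and 3122 ± 199 in 2D, with a log2 change of -0.16 (SE 0.22, 95% interval -0.66 to 0.35, adjusted p = 0.627). Its sign turned when 3D replicate 1 was left out (0.02), and once both 3D replicate 2 and 2D replicate 3 were removed the gene was called lower (-0.39, adjusted p = 0.036) in a fit that called 58.0% of all genes.

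IGFBP6 (ENSG00000167779, chromosome 12, 53097436 to 53102345), the binding protein with a marked preference for IGF2 over IGF1, had 911, 695 and 1019.9 normalised counts in 3D replicates 1, 2 and 3, against 329, 205 and 1445 in 2D replicates 1, 2 and 3. The 3D libraries were close together, above 2D replicates 1 and 2 and below 2D replicate 3. The means were 875 ± 165 in 3D and 659.7 ± 683 in 2D, with a log2 change of 0.91 (SE 0.61, 95% interval -0.48 to 2.29, adjusted p = 0.295). In 2D replicate 3 the log2 value was 2.47 above the mean of the other 2D libraries, and 2.21% of genes were as far. Without that library the gene was called higher in 3D (log2 1.73, adjusted p = 0.00089), in a fit that called 45.6% of all genes, 22.6% higher and 23.0% lower. Without 3D replicate 2 as well the log2 change was 1.89 (adjusted p = 1.1e-05).

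IGFBP7 (ENSG00000163453, chromosome 4, 57030773 to 57110385), a secreted matrix-associated protein, had 1137, 5748 and 1361 normalised counts in 3D replicates 1, 2 and 3, against 1255, 998 and 2006 in 2D replicates 1, 2 and 3. A single library, 3D replicate 2, stood above the others, which overlapped between the cultures. The means were 2749 ± 2600.4 in 3D and 1420 ± 524 in 2D (log2 0.61, SE 0.56, 95% interval -0.67 to 1.89, adjusted p = 0.449), and without 3D replicate 2 the log2 change was -0.13 (adjusted p = 0.781). In that library the log2 value was 2.21 above its fellows, and 0.968% of genes were as far; IGFBP3 was low in the same library. Exons of POLR2B on the other strand cover 270 bases of IGFBP7 exons and those of IGFBP7-AS1 cover 94 bases. The strand setting was not found in the labels or headers, so reads there may not have been told apart.

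**Figure D2:**
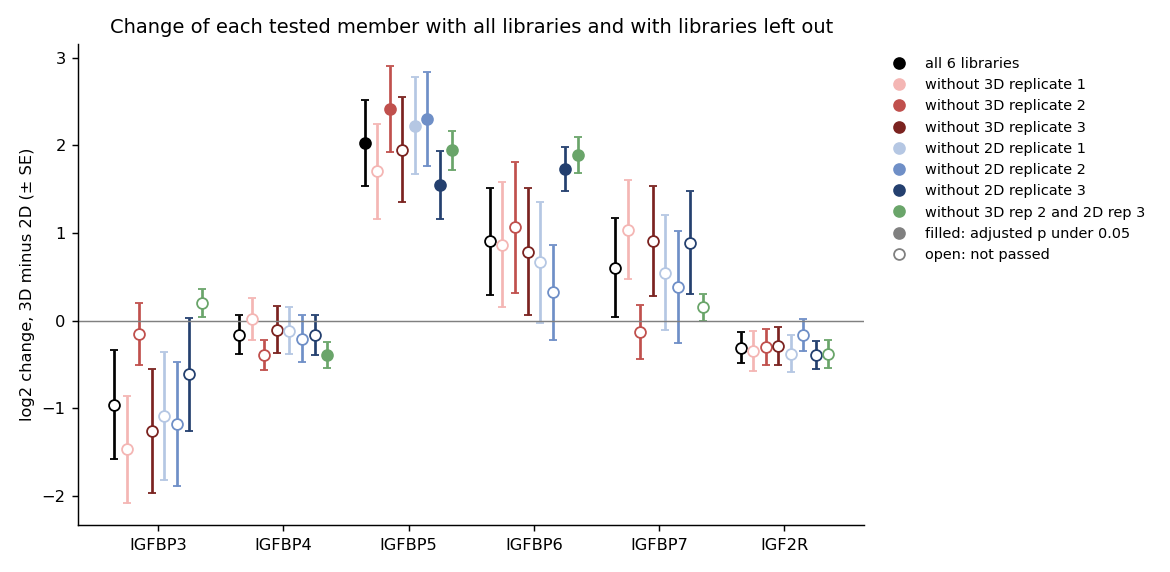
Log2 change, 3D minus 2D, with its SE (vertical axis) of the 6 tested members with all libraries, with each library left out and with both 3D replicate 2 and 2D replicate 3 removed; filled points had a limma adjusted p under 0.05. IGFBP5 stayed between 1.55 and 2.42 and IGF2R between -0.39 and -0.17, while IGFBP3, IGFBP4 and IGFBP7 had values on both sides of 0.

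The ligand gene IGF2 (ENSG00000167244, chromosome 11, 2129112 to 2149603) was barely read in either culture. It had 12, 12 and 16 reads in 3D replicates 1, 2 and 3, or 11.1, 11.6 and 16.5 normalised counts, against 0, 0 and 2 reads in 2D replicates 1, 2 and 3, or 0, 0 and 2.06 normalised counts. Every 3D library thus lay above every 2D library, and all 2D reads came from 2D replicate 3. Of the genes tested, which do not include IGF2, 20.5% had this arrangement. Its share among genes as low as IGF2 was not counted. The ratio of summed reads was 19.2 (exact 95% binomial interval 4.99 to 164, counting error only), and without 2D replicate 3 the level in 3D was at least 8.60-fold higher, against 3 reads summed over the other 2D libraries. The gene was below the level needed for the test; with no such filter its log2 change was 3.26 (limma adjusted p = 0.0085). Of its 75-base sequence windows, 71.5% also occur in transcripts of another gene, chiefly a second GENCODE entry named IGF2, so its level is uncertain where reads could be split.

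IGF2-AS and H19 lie near IGF2. IGF2-AS (ENSG00000099869, chromosome 11, 2140501 to 2148666), on the other strand of the same stretch, had 17, 26 and 25 reads in 3D and 0, 1 and 7 in 2D, with a log2 change of 3.15 (SE 0.79, adjusted p = 0.024). That call was lost in 5 of 6 fits with a library left out (adjusted p up to 0.10) and with a pseudocount of 0.1 (adjusted p = 0.052). Those 5 fits called 1190 to 2985 of all genes, against 3766 with all libraries. Of the exonic length of IGF2-AS, 11.6% lies over IGF2 exons, where reads cannot be told apart without strand. H19, the imprinted non-coding RNA 128 kilobases from IGF2, had 105.8, 15.5 and 127 normalised counts in 3D replicates 1, 2 and 3, against 6.67, 3.20 and 21.6 in 2D replicates 1, 2 and 3. The low 3D library, replicate 2, fell within the 2D range, and the gene missed the threshold (log2 2.76, SE 0.88, adjusted p = 0.051). It passed with no filter, with TMM scaling and with equal totals (adjusted p = 0.048, 0.049 and 0.048), and in edgeR and DESeq2 (adjusted p = 0.037 and 0.0018). With a library left out the log2 change ran from 2.21 to 3.70 and the gene passed in 2 of 6 fits (adjusted p = 0.011 to 0.184). The highest change came without 3D replicate 2 (adjusted p = 0.019), in a fit that called 19.1% of all genes, 10.1% higher and 9.03% lower. H19 is described in full although it missed the threshold, a choice made after its values were seen.

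**Figure D3:**
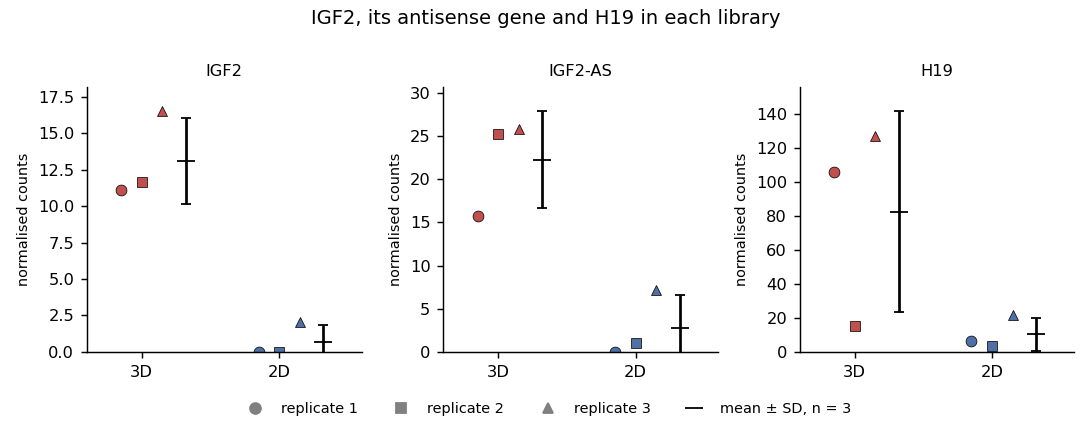
Normalised counts (vertical axes, from 0) of IGF2, IGF2-AS and H19 in the 3 libraries of 3D and the 3 of 2D, with the mean ± SD cut at 0. All 3D libraries lie above all 2D libraries for IGF2 and IGF2-AS, and 3D replicate 2 lies among the 2D libraries for H19. The arrangement of IGF2 and IGF2-AS was seen in 20.5% of the genes tested, which include IGF2-AS but not IGF2.

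The receptor gene IGF2R (ENSG00000197081, chromosome 6, 159969099 to 160113507) had 3143, 2957 and 2912 normalised counts in 3D replicates 1, 2 and 3, against 3396, 4553 and 3339 in 2D replicates 1, 2 and 3. All 3D libraries lay below all 2D libraries, an arrangement seen in 22.6% of the genes tested, and 2D replicate 2 was the high one. The means were 3004 ± 123 in 3D and 3763 ± 685 in 2D, with a log2 change of -0.31 that did not pass (SE 0.18, 95% interval -0.71 to 0.09, adjusted p = 0.22). Its coefficient of variation in 3D, 4.09%, was the smallest of the members read in that culture.

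Levels of different genes were compared per kilobase of exonic length. In 3D the order of the means was IGFBP7 (1424 ± 1347 normalised counts per kilobase), IGFBP4 (1307 ± 393), IGFBP6 (650.3 ± 123), IGFBP3 (336 ± 227), IGF2R (168 ± 6.88), IGFBP5 (37.7 ± 17.2) and IGF2 (1.88 ± 0.426). The ranges of IGFBP7 and IGFBP4, of IGFBP6 and IGFBP3, and of IGFBP3 and IGF2R overlapped over the 3D libraries, although IGFBP6 lay above IGFBP3 within each of them. The ranges of IGFBP4 and IGFBP6, of IGF2R and IGFBP5, and of IGFBP5 and IGF2 were apart. In 2D the order was IGFBP4 (1419 ± 90.5), IGFBP7 (736 ± 271), IGFBP3 (539.5 ± 246), IGFBP6 (490.2 ± 508), IGF2R (211 ± 38.4) and IGFBP5 (9.33 ± 4.39), with IGF2 and IGFBP2 at 0.295 or less in each library. There the ranges of IGFBP4 and IGFBP7 and of IGF2R and IGFBP5 were apart. The ranges of the neighbours from IGFBP7 down to IGF2R overlapped, although IGFBP7 lay above IGFBP3 within each 2D library. IGFBP5, the member that rose, was the lowest in both cultures of the clearly read binding proteins among the members, which do not include IGFBP1.

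The 6 binding proteins together had 2843, 5349 and 3073 normalised counts per kilobase in 3D replicates 1, 2 and 3, against 2841, 2384 and 4356 in 2D replicates 1, 2 and 3. The sums overlapped between the cultures, and the high ones were again 3D replicate 2 and 2D replicate 3. IGFBP7 made up 55.7% of the sum in 3D replicate 2 and 20.7% to 23.9% in every other library. IGFBP6 made up 23.8%, 9.65% and 24.7% in 3D replicates 1, 2 and 3 and 8.60%, 6.39% and 24.6% in 2D replicates 1, 2 and 3. IGFBP4 took 35.3% ± 2.80 in 3D and 47.2% ± 12.8 in 2D (SD, n = 3 each), and 2D replicate 3, at 32.5%, was the 2D library within reach of 3D. IGFBP5 took 0.377% to 1.92% in 3D and 0.0989% to 0.521% in 2D.

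**Figure D4:**
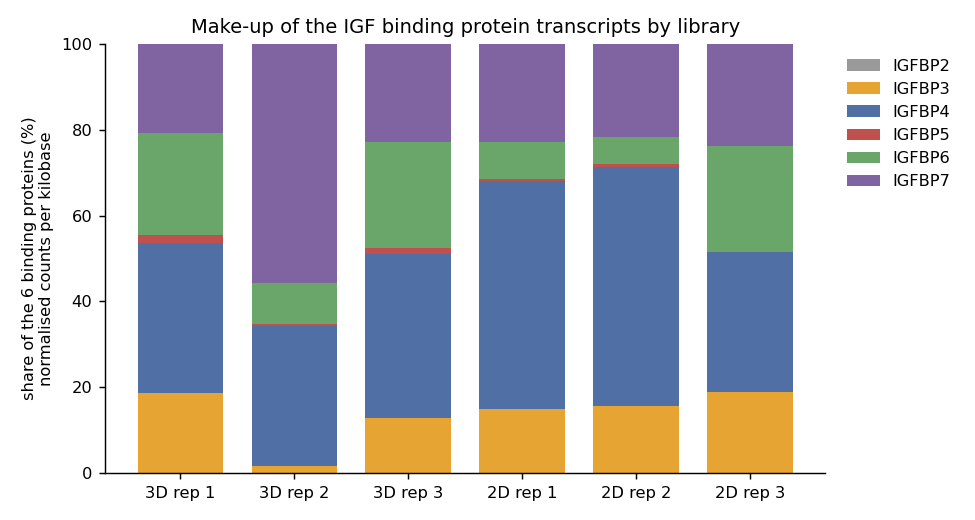
Share of each of 6 binding proteins (percent of their summed normalised counts per kilobase, vertical axis) in the 3 libraries of 3D and the 3 libraries of 2D; IGFBP2 is too low to be visible. IGFBP7 makes up 55.7% in 3D replicate 2, IGFBP4 makes up 53.2% and 55.8% in 2D replicates 1 and 2, and 2D replicate 3 resembles 3D replicates 1 and 3.

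For each tested member, protein-coding genes with the most similar profile (up to 2 are given) were found by the root mean square difference of centred log2 values over the 6 libraries. They were CCNA1 (0.18) for IGFBP5, B4GALNT2 (0.24) and MDK (0.31) for IGFBP3, BPGM (0.13) and PALMD (0.23) for IGFBP7, and SLC25A10 (0.09) and FGFR3 (0.21) for IGFBP6. For the flatter profiles they were SDHAF2 (0.04) and ORC5 (0.05) for IGFBP4 and PTPN13 (0.04) and FBXW2 (0.04) for IGF2R. BPGM carried the same mark of a single library as IGFBP7, with 242, 994 and 242 normalised counts in 3D replicates 1, 2 and 3, against 241, 219.9 and 403 in 2D replicates 1, 2 and 3. The libraries share culture and processing, and these likenesses are descriptions only.

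Around the members, 88 genes of the pathway were listed by role. Of these 81 had a row and 70 were tested; 10 rose and 15 fell in 3D, or 14.3% and 21.4%, where 12.5% and 11.6% of all genes did. The counts were 11 and 11 with TMM scaling, where 2077 of all genes were called higher and 1609 lower. They were 12 and 10 with equal totals, where 2392 of all genes were called higher and 1253 lower. Over all lists together and over all genes, lower calls thus did not outnumber higher ones under these scalings. Over all genes they did not in the main fit either (1950 higher and 1816 lower). Single lists were not counted under these scalings. The median log2 change of the tested pathway genes was -0.21, beside -0.02 for all genes tested. The counts of each list below are likewise to be read against the 12.5% and 11.6% of all genes. With any single library but 2D replicate 3 left out, 1190 to 2985 of all genes were called, against 3766 with all libraries. Calls lost in such fits are to be read beside this. Of other ligands, receptors and binding proteins, 4 of 8 were tested, 1 rose and 0 fell (median -0.17; at an unadjusted p under 0.05, 1 was lower, and edgeR and DESeq2 called 0 and 0 lower). INSRR, an orphan receptor of the insulin receptor family, had 59.4, 31.02 and 51.6 normalised counts in 3D replicates 1, 2 and 3. In 2D replicates 1, 2 and 3 it had 0, 5.34 and 8.22 (log2 3.59, SE 0.81, adjusted p = 0.017). The INSRR call ended when 3D replicate 1 or 3 was left out (adjusted p = 0.071 and 0.076). It also ended with a pseudocount of 0.1 (log2 4.79, adjusted p = 0.052), and with a pseudocount of 10 the log2 change was 1.99. The signalling receptors did not pass: IGF1R averaged 3546 ± 162 in 3D and 3934 ± 512 in 2D, and INSR 513 ± 71.8 in 3D and 585 ± 54.4 in 2D. IGFBP1, which lies 18.6 kilobases from IGFBP3, averaged 18.7 ± 5.64 in 3D and 41.03 ± 10.03 in 2D (adjusted p = 0.077). IGFALS, the acid-labile subunit that joins IGF and IGFBP3 in blood, was too low to test, and IGF1, INS and IGFBPL1 were not analysed here.

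Among proteases of IGF binding proteins and the inhibitors of these, 9 of 14 were tested, 3 rose and 2 fell (median -0.46). MMP2, a gelatinase that can cut binding proteins, averaged 4302 ± 2817 in 3D and 185 ± 48.9 in 2D (log2 4.37, SE 0.40, adjusted p = 0.00057); 3D replicate 2 had 7549.5, and without that library the log2 change was 3.87. STC1, a stanniocalcin that inhibits PAPPA, averaged 833 ± 320 in 3D and 82.1 ± 14.04 in 2D (log2 3.25, SE 0.33, adjusted p = 0.00076). The complement proteases C1R and C1S, of which C1S can cut IGFBP5, fell by 2.13 and 1.45 on the log2 scale (adjusted p = 0.00076 and 0.0024), and the lysosomal protease CTSD rose by 0.67 (adjusted p = 0.046), a call held in 1 of 6 fits with a library left out and lost with no filter (adjusted p = 0.057). PAPPA, the protease that releases IGFs from IGFBP4 and IGFBP5, had 377, 582 and 369 normalised counts in 3D replicates 1, 2 and 3, against 1125, 1491 and 499 in 2D replicates 1, 2 and 3. It missed the threshold (log2 -1.12, adjusted p = 0.065) but passed without 2D replicate 3 (-1.58, adjusted p = 0.0011) and in DESeq2 (adjusted p = 0.012), and 20.6% of its sequence windows are shared with other genes, chiefly PAPPA-AS1. STC2, the other stanniocalcin, had 1543, 746 and 1265 in 3D replicates 1, 2 and 3, against 14901, 14636 and 418 in 2D replicates 1, 2 and 3; it did not pass (log2 -1.99, SE 1.19, adjusted p = 0.244), and without 2D replicate 3 it did (-3.70, adjusted p = 4.1e-05).

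Below the receptors, 28 of 30 signalling genes were tested, 2 rose and 9 fell (median -0.41). These were 7.14% and 32.1%, where 12.5% and 11.6% of all genes tested rose and fell. In edgeR 2 were higher and 7 lower, and in DESeq2 3 were higher and 11 lower. The docking proteins of the IGF1 and insulin receptors fell: IRS1 averaged 130.5 ± 69.2 in 3D and 447 ± 143 in 2D (log2 -1.83, SE 0.39, adjusted p = 0.013), and IRS2 1576 ± 492 in 3D and 3455 ± 1006 in 2D (log2 -1.14, SE 0.30, adjusted p = 0.028). FOXO1, a transcription factor held in check by this signalling, fell by 1.04 on the log2 scale (adjusted p = 0.011). GRB14, an adaptor that inhibits the insulin receptor, rose, with 172 ± 30.8 in 3D and 28.7 ± 22.5 in 2D (log2 2.79, SE 0.50, adjusted p = 0.0070), and the phosphoinositide kinase subunit PIK3R3 had 941 ± 178 in 3D and 264 ± 209 in 2D (log2 2.09, adjusted p = 0.015). Of these calls, that of GRB14 was kept in each of the 6 fits with a library left out; IRS1 and PIK3R3 lost theirs in 4 of them, IRS2 in 5 and FOXO1 in 2, with adjusted p of up to 0.093.

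Of genes that act on IGF2, 9 of 12 were tested, 2 rose and 1 fell (median 0.14). PLAGL1, an imprinted zinc finger gene, averaged 901 ± 125 in 3D and 441 ± 32.7 in 2D (log2 1.02, SE 0.18, adjusted p = 0.0068), and IGF2-AS also rose. CTCF, the insulator protein bound between H19 and IGF2, averaged 1315 ± 48.8 in 3D and 2156 ± 187 in 2D (log2 -0.71, SE 0.15, adjusted p = 0.014), and lost the call in 4 of 6 fits with a library left out. The mRNA-binding proteins IGF2BP1, IGF2BP2 and IGF2BP3 had log2 changes of -0.29, 0.27 and -0.65 and did not pass (adjusted p = 0.351, 0.391 and 0.063).

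In the list for mannose 6-phosphate tagging and for sorting, which is not limited to receptors of that tag, 13 of 13 genes were tested, 0 rose and 2 fell (median 0.00). SORT1, a sorting receptor, averaged 922 ± 91.9 in 3D and 1954 ± 138 in 2D (log2 -1.08, SE 0.16, adjusted p = 0.0036). VPS35, a retromer subunit that returns such receptors, fell by 0.56 on the log2 scale (adjusted p = 0.047). This VPS35 call was lost in 4 of 6 fits with a library left out. With all libraries it was also lost under both rescalings of the libraries (adjusted p = 0.060 and 0.097). The same held with no filter (adjusted p = 0.066) and in edgeR (adjusted p = 0.071). M6PR, the smaller mannose 6-phosphate receptor, averaged 1918 ± 295 in 3D and 1830 ± 192 in 2D (log2 0.06, adjusted p = 0.817). At an unadjusted p under 0.05, 0 of the 13 were higher in limma, and edgeR and DESeq2 called 0 and 0 higher.

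Of partners of the binding proteins at the cell surface and in the nucleus, 7 of 11 were tested, 2 rose and 1 fell (median 0.32). VTN, the matrix protein vitronectin, which binds IGFBP5, averaged 183 ± 74.5 in 3D and 2518.5 ± 844 in 2D (log2 -3.81, SE 0.37, adjusted p = 0.00063). ITGA5, the fibronectin receptor subunit, averaged 4168 ± 205 in 3D and 2159 ± 508 in 2D (log2 0.98, adjusted p = 0.013; lost when 3D replicate 1 or 3 was left out), and TMEM219, a receptor for IGFBP3, rose by 0.59 on the log2 scale (adjusted p = 0.042), a call held in 1 of 6 fits with a library left out and lost with no filter (adjusted p = 0.059). Over all lists, 19 of the genes named here passed the test, and 8 of them, namely C1R, C1S, GRB14, MMP2, PLAGL1, SORT1, STC1 and VTN, passed in each of the 17 alternatives run.

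**Figure D5:**
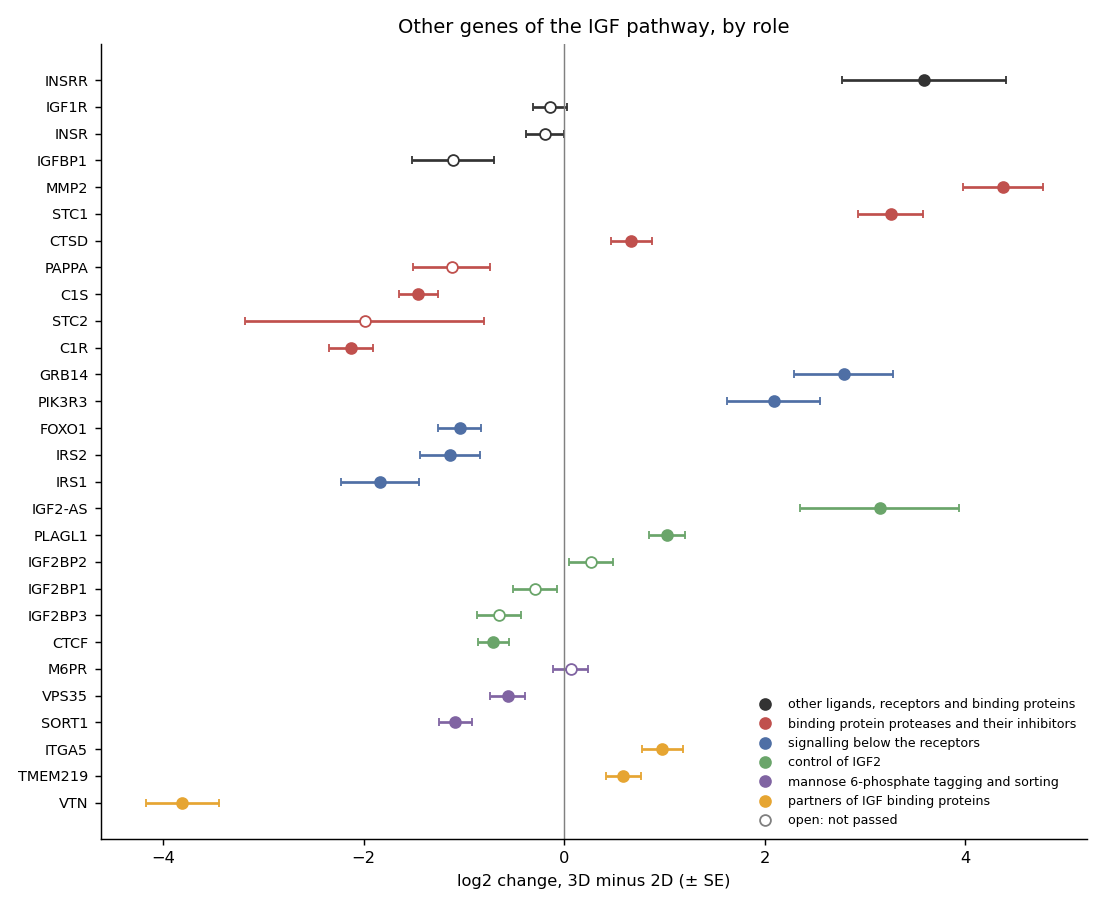
Log2 change, 3D minus 2D, with its SE (horizontal axis) of the tested pathway genes named in the text except H19, grouped by role from top to bottom. Filled points had a limma adjusted p under 0.05. MMP2, at 4.37, and VTN, at -3.81, lie farthest from 0, and IGF1R, INSR and M6PR lie close to it.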

How the data were processed

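Poly(A) RNA of 3 libraries of 3D and 3 of 2D culture was sequenced on an Illumina NovaSeq after TruSeq library preparation, per the labels' protocols. The submitters' processing notes name HISAT2, featureCounts 1.5.0, DESeq2 and GRCh38/hg38; other versions, the annotation release and the strand setting were not found in the labels or headers. The table that the authors deposited holds a signal for each gene, reads over a size factor of the library. In every library 100% of values came out as whole reads (tolerance 0.01 reads), so reads were recovered; edgeR called 3657 genes on them. Symbols were found for 26506 of 26748 genes, and GENCODE 29 (GRCh38) gave coordinates and exonic lengths.

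Genes with a mean of at least 10 (15598) were tested on log2(value + 1) in limma 3.58.1 under R 4.3.3, with an abundance trend, culture as the only term, two-sided, and Benjamini-Hochberg adjustment over all of them at 0.05. Fold changes on this scale understate the change of low genes. The alternatives were pseudocounts of 0.1 and 10, no filter or a mean of 50, TMM or equal totals as the scaling, a block for the replicate number, a robust fit, edgeR 4.0.16 and DESeq2 1.42.0 on the recovered reads, each library dropped in turn, and both 3D replicate 2 and 2D replicate 3 dropped. Samples were grouped by title. The members, the lists and the doubted libraries were chosen with earlier results of these data known. Named were all 8 members, the first pathway list, up to 5 called genes of largest change in each other list, and PAPPA, STC2, IRS1, IRS2, IGF2BP1, IGF2BP2, IGF2BP3 and M6PR; genes of like profile came from the likeness rule (1 is not reported here), and H19 was added after its values were seen.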

Additional observations from a re-analysis of the deposited data

How the results depend on the processing

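For the 6 tested members, 94 of 102 values under 17 alternatives kept the direction and the side of the threshold, 2 lost a call, 3 gained one and 3 changed sign; for 29 named pathway genes these numbers were 411 of 489, 53, 22 and 3. With both 3D replicate 2 and 2D replicate 3 dropped, the log2 change of IGFBP3 turned to 0.200 and that of M6PR to -0.014. With each library dropped in turn, IGFBP4 ran from -0.389 to 0.018, IGFBP7 from -0.129 to 1.040 and M6PR from -0.059 to 0.142. The same fits called 1190 to 7111 genes, 0 to 2 members higher, 0 to 0 members lower, 4 to 16 pathway genes higher and 4 to 22 lower, and the fit without both libraries called 9041 genes, 2 members higher and 1 lower, and 19 pathway genes higher and 29 lower. These fits leave fewer libraries, and the cause of the shifts was not tested.

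No pairing of the libraries by replicate number was seen. Deviations of same-numbered libraries from their culture's mean correlated at -0.084, -0.139 and 0.045 across genes, and not every library correlated best with its own number. With 3 libraries in each culture, these correlations cannot exclude that libraries were paired by design. With the replicate block 3222 genes were called, 1 member higher and 0 lower, and 9 pathway genes higher and 11 lower; of the genes named, CTSD, TMEM219 and VPS35 lost their calls under the block (adjusted p = 0.062, 0.086 and 0.093) and PAPPA and H19 gained one (adjusted p = 0.021 and 0.0095). Equal totals moved the median log2 change of all genes to 0.11, against -0.02, and no member's call changed. Depth limits IGF2, with 40 reads in 3D and 2 in 2D, and IGFBP2, with 0 in 3D and 2 in 2D.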

Other observations

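Markers of other cell types were read beside the members. Of 6 epithelial markers 5 were tested, 0 rose and 2 fell (at an unadjusted p under 0.05, 0 were higher in limma, and edgeR and DESeq2 called 0 and 0 higher). EPCAM, an epithelial adhesion molecule, averaged 172 ± 35.8 in 3D and 423 ± 55.8 in 2D (SD, n = 3 each), and CDH1, which encodes E-cadherin, averaged 5.62 ± 2.74 in 3D and 92.3 ± 20.2 in 2D. The keratins KRT8, KRT18 and KRT19 did not pass. The keratin KRT5 was too low to test and went the other way from EPCAM and CDH1. It had 8.35, 1.94 and 9.29 normalised counts in 3D replicates 1, 2 and 3, against 0.953, 0 and 0 in 2D replicates 1, 2 and 3. These rested on 20 reads in 3D and 1 in 2D, and with no filter the log2 change was 2.39 (limma adjusted p = 0.036). KRT8 had 24316, 21787 and 28676 normalised counts in 3D replicates 1, 2 and 3, against 16689, 13270.2 and 44355 in 2D replicates 1, 2 and 3. The library highest for KRT8, 2D replicate 3, was also the highest for IGFBP6; the part of this in the result was not tested.

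Of 5 endothelial markers 3 were tested and PECAM1 rose, with 117 ± 32.6 in 3D and 3.08 ± 5.34 in 2D. The other tested ones had lower means in 3D and did not pass. CDH5 averaged 20.8 ± 1.18 in 3D and 103 ± 144 in 2D, and VWF 17.7 ± 7.43 in 3D and 31.0 ± 8.41 in 2D. The median log2 change of the tested endothelial markers was -0.82. The summed level of that list was 138 to 188 in 3D and 39.5 to 319 in 2D, and KDR had at most 2.14 in any library.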
